A study of Mus musculus with 6 samples.

Results

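The genes described here were the 32 members of a list that was chosen with earlier results of these data known. It held sensors, transcription factors, chaperones, folding enzymes and degradation factors of the unfolded protein response (UPR) in the endoplasmic reticulum (ER). All 32 were matched by Ensembl gene ID among the 55414 gene IDs of the deposited count table. The libraries came from Paneth cells, the granule-filled antimicrobial cells at the base of the small intestinal crypts, which were collected by fluorescence-activated cell sorting from wild-type (WT) C57BL/6J mice. A standard diet group was fed standard chow and a zinc depleted group was fed zinc depleted chow, both for 7 weeks, and mice of both groups received tumour necrosis factor (TNF) 3 h before sampling. Each group had 3 RNA-seq libraries, and no group without TNF was part of the comparison, so every value below is a level in the presence of TNF. The age of the mice and the TNF dose were not given in the sources used here. The series describes its replicates as biological and the study describes its sorted Paneth cell samples as coming from individual mice, but the sample labels do not name the animal behind each library, and the p-values measure the spread between these libraries.

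The UPR adjusts the folding capacity of the ER to the load of secretory protein. In its IRE1 arm, the sensor cuts a short intron out of Xbp1 mRNA and the spliced form encodes the active transcription factor. In the ATF6 arm, the sensor itself is cut by proteases in the Golgi and its released part activates chaperone genes, and in the PERK arm a kinase slows translation while ATF4 and CHOP (encoded by Ddit3) are made. Paneth cells secrete large amounts of disulfide-rich peptides, and loss of Xbp1 in the mouse intestinal epithelium is known to deplete them.

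The libraries held between 6139397 and 12772373 counts, and the alpha-defensin genes took between 45.5% and 60.5% of them. All 6 listed Paneth cell markers (Defa24, Lyz1, Itln1, Mmp7, Ang4 and Mptx2) had counts in every library. Their summed levels moved with the genes described here, at 241022, 302109 and 551228 normalised CPM (read counts relative to the library size, which was scaled by the trimmed mean of M values, TMM) with standard diet and at 319841, 878948 and 1214710 with zinc depletion, and standard diet library 3 lay within the zinc depleted range. All 6 Paneth cell markers had estimates above 0 with TMM scaling (log2 fold change 0.36 to 1.94, none passing the test), and Itln1 was at -0.39 with total counts. The part of a different Paneth cell content or state in the results below was not tested. Summed levels of 5 goblet cell markers ranged from 1098 to 1631 normalised CPM with standard diet and from 1746 to 3862 with zinc depletion. Zinc depleted library 1 was the highest through Muc2 (3109 normalised CPM), whereas Tff3 was highest in zinc depleted library 3 and Fcgbp and Zg16 were highest in standard diet library 2. Of 6 plasma cell markers, 3 (Mzb1, Tnfrsf17 and Iglc2) were at 0 in all libraries, and the 6 together summed to 0 in 3 libraries and to at most 7.40 CPM in the others. The scaling factors ran from 0.898 to 1.73 with standard diet and from 0.460 to 1.46 with zinc depletion, and they decided the sign of many fold changes. With TMM scaling 50.0% of the 9749 tested genes lay above 0, whereas with scaling to total counts the median over all tested genes was -0.66 on the log2 scale.

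Per kilobase of transcript, the most abundant members were secretory folding genes. P4hb, which encodes protein disulfide isomerase, averaged 432 normalised CPM per kb with standard diet and 786 with zinc depletion. Calr, encoding the lectin chaperone calreticulin, averaged 132 and 216, and Xbp1 averaged 96.9 and 172. Hspa5, encoding the major ER chaperone BiP, averaged 52.8 and 108. The sensors lay far lower, at 5.82 and 7.46 normalised CPM per kb for Ern2, 4.32 and 4.15 for Ern1, 2.97 and 3.35 for Eif2ak3 and 1.89 and 3.07 for Atf6. All 4 sensors lay in the lower part of the plot of levels per transcript length, and Ddit3 was the lowest of all 32.

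**Figure D1:**
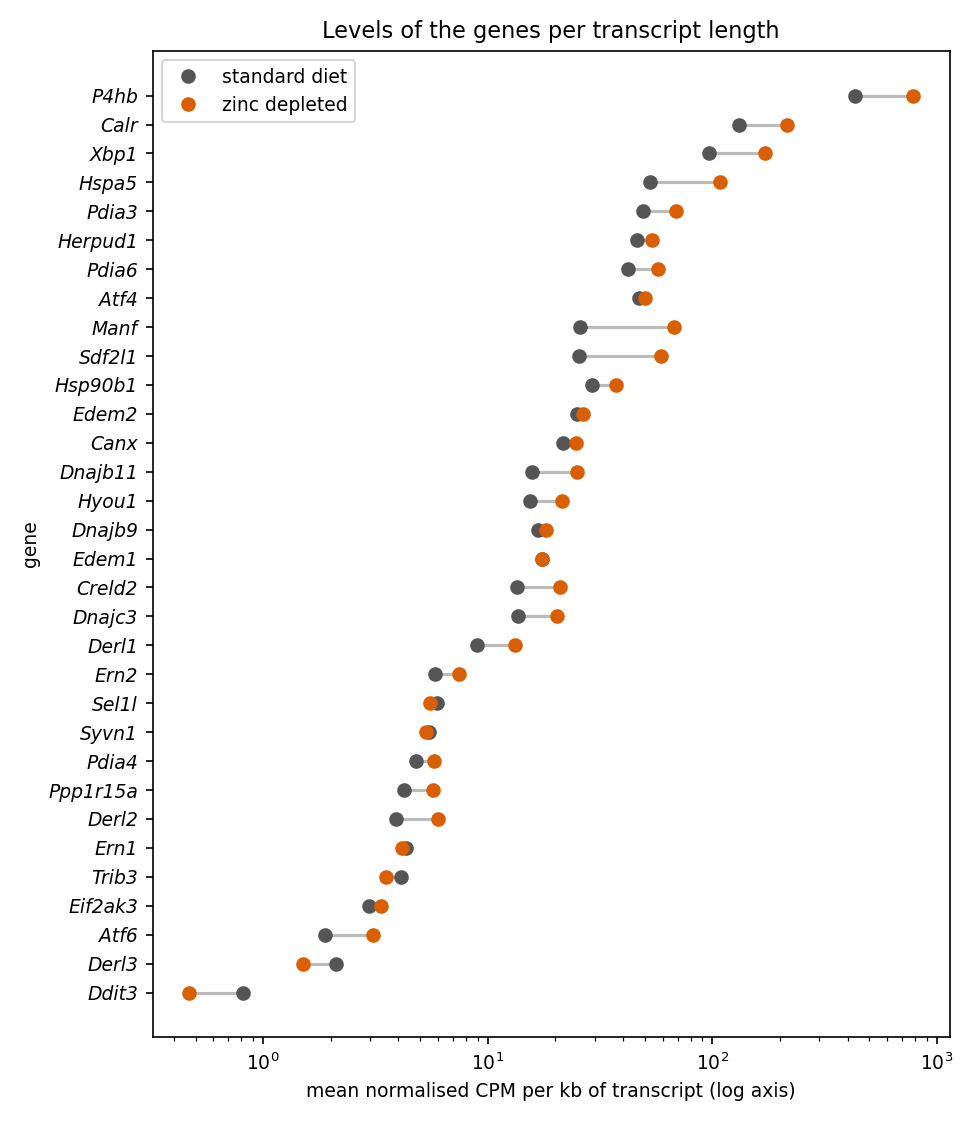
Mean normalised CPM per kb of transcript (x axis, log scale) for each of the 32 genes (y axis, ordered by level), with standard diet in grey and zinc depletion in orange (mean of 3 libraries each). P4hb is at the top with 432 and 786, and Ddit3 is at the bottom.

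ER stress elements are short promoter motifs through which ATF6 and XBP1 are known to act, and they are shown here because 13 of the 32 genes carried one. The ER stress element (ERSE) was searched as CCAAT, 9 bases of any kind and CCACG, and the second type (ERSE-II) as ATTGG, 1 base of any kind and CCACG, on both strands from 250 bases before to 50 after the canonical transcript start (base +1). The search covered 21757 protein-coding promoters of GRCm39 with GENCODE M39 starts. ERSE was in 27 promoters (0.124%), and 9 of these belonged to the 32 genes. ERSE-II was in 15 promoters (0.0689%), and 4 of these belonged to the list. A match is a description of the letters in this window and not evidence of binding. The ERSE matches of 5 chaperone and folding genes are printed on the strand on which the motif reads, with its fixed bases in capitals.
Hspa5 (chr2:34662032-34662060, plus strand): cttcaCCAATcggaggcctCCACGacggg
Dnajc3 (chr14:119175234-119175262, plus strand): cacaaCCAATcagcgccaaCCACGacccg
Creld2 (chr15:88703718-88703746, minus strand): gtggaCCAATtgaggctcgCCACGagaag
Calr (chr8:85573699-85573727, plus strand): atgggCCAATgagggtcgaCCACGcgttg
Pdia6 (chr12:17316487-17316515, plus strand): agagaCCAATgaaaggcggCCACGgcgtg
The element ran from -67 to -49 in Hspa5 and from -106 to -88 in Dnajc3. It lay on the strand opposite to the gene in Creld2 and Calr. The 5 printed genes had the larger estimates of the 9 that carried this element, with log2 fold changes of 0.45 to 1.03. The matches not printed were 2 in Hsp90b1 (0.36) and 1 each in Canx (0.19), Syvn1 (-0.03) and Derl3 (-0.45).

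The ERSE-II matches of all 4 listed genes that carried this second form are printed in the same way.
Manf (chr9:106769233-106769253, plus strand): tcctcATTGGtCCACGtgccc
Dnajb11 (chr16:22676597-22676617, plus strand): cggcgATTGGcCCACGcctgg
Herpud1 (chr8:95113000-95113020, plus strand): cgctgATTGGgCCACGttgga
Hyou1 (chr9:44290656-44290676, minus strand): tgcggATTGGgCCACGtcacg
Hyou1 (chr9:44290757-44290777, minus strand): accccATTGGtCCACGtagaa
In Dnajb11 the element lay just after the start, from +14 to +24, and in Manf it lay from -70 to -60. The UPR element core TGACGTGG was in 157 promoters (0.722%) and in the list only in Hyou1, where it overlapped the ERSE-II match that begins at -112. The ATF4-type element TGATGNAA was in 836 promoters (3.84%) and in the list only in Ddit3 and Herpud1. Sdf2l1, Xbp1, P4hb and the 4 sensors held none of these motifs in this window. Of the 13 tested genes with either ER stress element 11 had a higher mean with zinc depletion (median log2 fold change 0.47), and of the 18 without it 14 did (median 0.32). Among all tested genes 23 carried either element, these 13 included, and 14 of the 23 were higher (60.9%, median 0.36). A link between the elements and the fold changes was not tested.

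None of the 31 genes that passed the low-count filter differed between the diets at an adjusted p below 0.05 in edgeR's quasi-likelihood test, and neither did any of the 9749 genes tested (0% called). DESeq2 called 10 genes, none of them in the list. The estimates leaned to higher levels with zinc depletion. The log2 fold change was above 0 for 25 of 31 genes, against 50.0% of all tested genes, with a median of 0.44 and a range from -0.45 for Derl3 to 1.39 for Manf. At an unadjusted p below 0.05, 3 genes (Manf, Sdf2l1 and Hspa5) were higher and 0 were lower. Of all tested genes 6.62% were below this p, with 2.58% higher and 4.03% lower. The 3 zinc depleted libraries all lay above the 3 standard diet libraries for 8 genes (Hspa5, Hsp90b1, Dnajb11, Dnajc3, Creld2, Calr, Pdia4 and Derl1), where 3.51% of all tested genes did so, and no gene of the list showed the opposite order, which 6.58% of all tested genes did. With scaling to total counts 11 of the 31 estimates were above 0 and the median was -0.21, although 29 of the 31 lay above the median of all genes on that scale. Only Manf then had groups that did not overlap, against 0.554% of all tested genes that were higher in this way and 10.3% that were lower. In sorted bulk samples fewer cells that express a gene and less RNA per cell cannot be told apart.

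**Figure D2:**
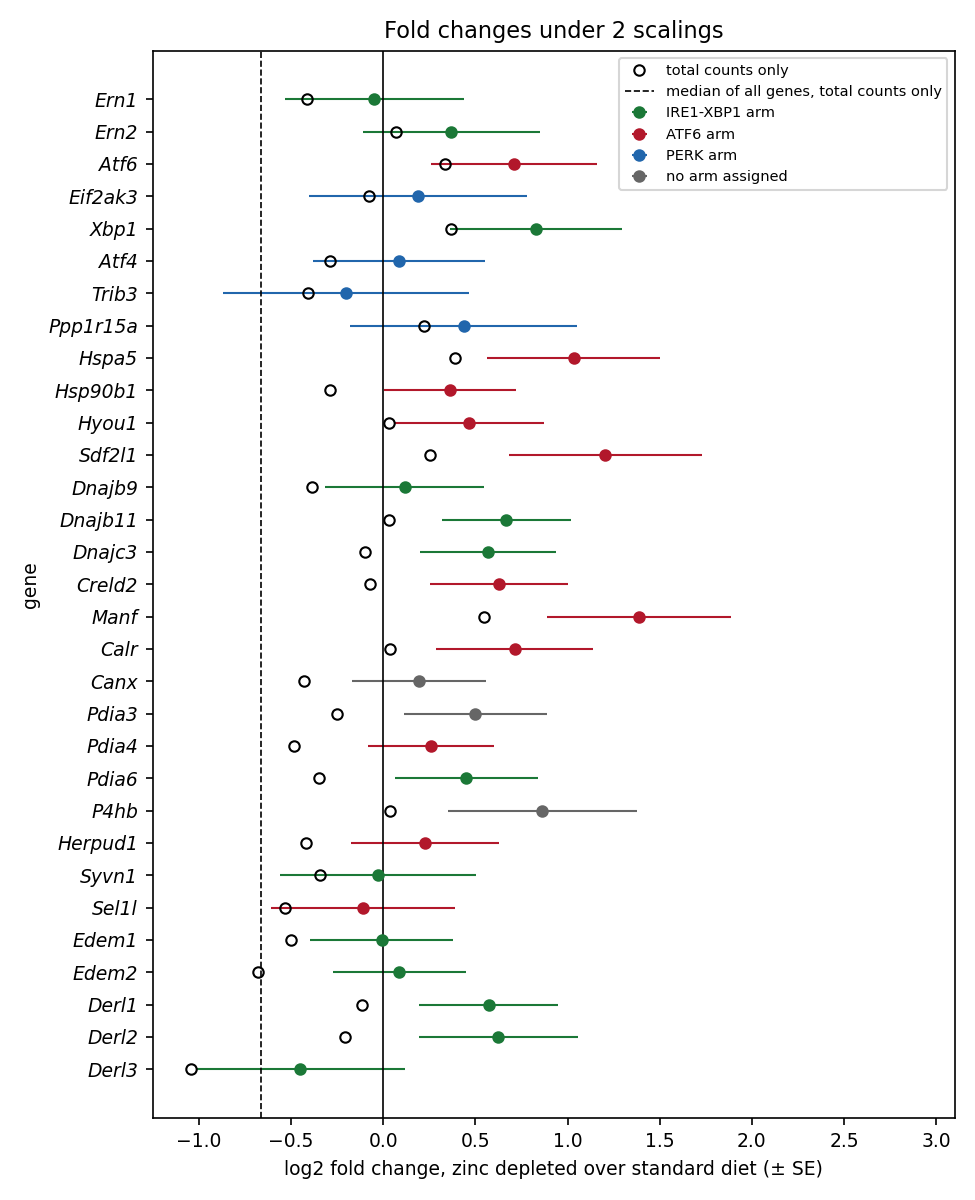
log2 fold change of zinc depletion over standard diet (x axis) for the 31 tested genes (y axis), with filled points for TMM scaling (bars, SE, 3 libraries per group) coloured by arm, open points for scaling to total counts and a dashed line at the median of all tested genes on that second scale (-0.66). With TMM scaling 25 of 31 points lie above 0 and with total counts 11 do, while 29 open points lie to the right of the dashed line.

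All 4 sensors were highest in zinc depleted library 1, and none differed between the diets by the test. Ern1 (ENSMUSG00000020715, chr11:106283818-106378686, minus strand), which encodes the widely expressed IRE1 alpha, was at 26.4, 39.2 and 25.1 normalised CPM with standard diet and at 52.0, 19.1 and 16.0 with zinc depletion. Zinc depleted library 1 was the highest and the other zinc depleted libraries were the lowest of the 6. On the log2 scale the groups differed by -0.05 ± 0.48 (SE), with an edgeR adjusted p of 0.980. Ern2 (ENSMUSG00000030866, chr7:121769116-121785468, minus strand), which encodes IRE1 beta of mucosal epithelia, was at 14.3, 18.2 and 18.4 against 39.6, 12.6 and 12.9. It showed the same order, with library 1 alone above the standard diet libraries and the other 2 below them, and its log2 fold change was 0.37 ± 0.48 (edgeR adjusted p = 0.828).

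Atf6 (ENSMUSG00000026663, chr1:170532026-170696208, minus strand) was at 13.7, 15.4 and 13.7 normalised CPM with standard diet and at 39.8, 16.0 and 13.6 with zinc depletion. The standard diet libraries were nearly level and the whole difference lay in zinc depleted library 1. Its log2 fold change was 0.71 ± 0.45 (edgeR adjusted p = 0.694) and was 0.07 without that library. Eif2ak3 (ENSMUSG00000031668, chr6:70821461-70882235, plus strand), encoding PERK, was at 10.4, 14.1 and 16.1 against 27.0, 15.6 and 3.24. Its zinc depleted values spanned both the highest and the lowest of the 6, and the log2 fold change was 0.19 ± 0.59 (edgeR adjusted p = 0.926). The median over the 4 sensors was 0.28 and became -0.46 when zinc depleted library 1 was left out, with Ern1 then at -0.77, Ern2 at -0.39 and Eif2ak3 at -0.53.

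The balance of both IRE1 paralogs within a library does not depend on scaling. It can depend on transcript length, because Ern1 (7002 bases) is longer than Ern2 (2914). The libraries differed in a length trend given below, and its part in this balance was not tested. Ern2 made up 35.1%, 31.7% and 42.3% of the summed Ern1 and Ern2 counts with standard diet, with Wilson 95% intervals of 31.1 to 39.4, 27.9 to 35.8 and 37.5 to 47.3 that cover counting error only. With zinc depletion the shares were 43.3% (40.6 to 45.9), 39.7% (32.3 to 47.7) and 44.7% (37.4 to 52.2). Standard diet library 3 lay within the zinc depleted range and the other standard diet libraries lay below it. The means were 36.4% ± 5.41 and 42.6% ± 2.56 (SD, n = 3 each), a difference of 6.18 percentage points with a two-sided exact permutation p of 0.2, where 0.1 is the smallest value that 3 against 3 libraries allow. With counts divided by transcript length the means were 57.7% and 64.0% (exact permutation p = 0.2). This division keeps the order of the libraries, so it is not a separate check.

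**Figure D3:**
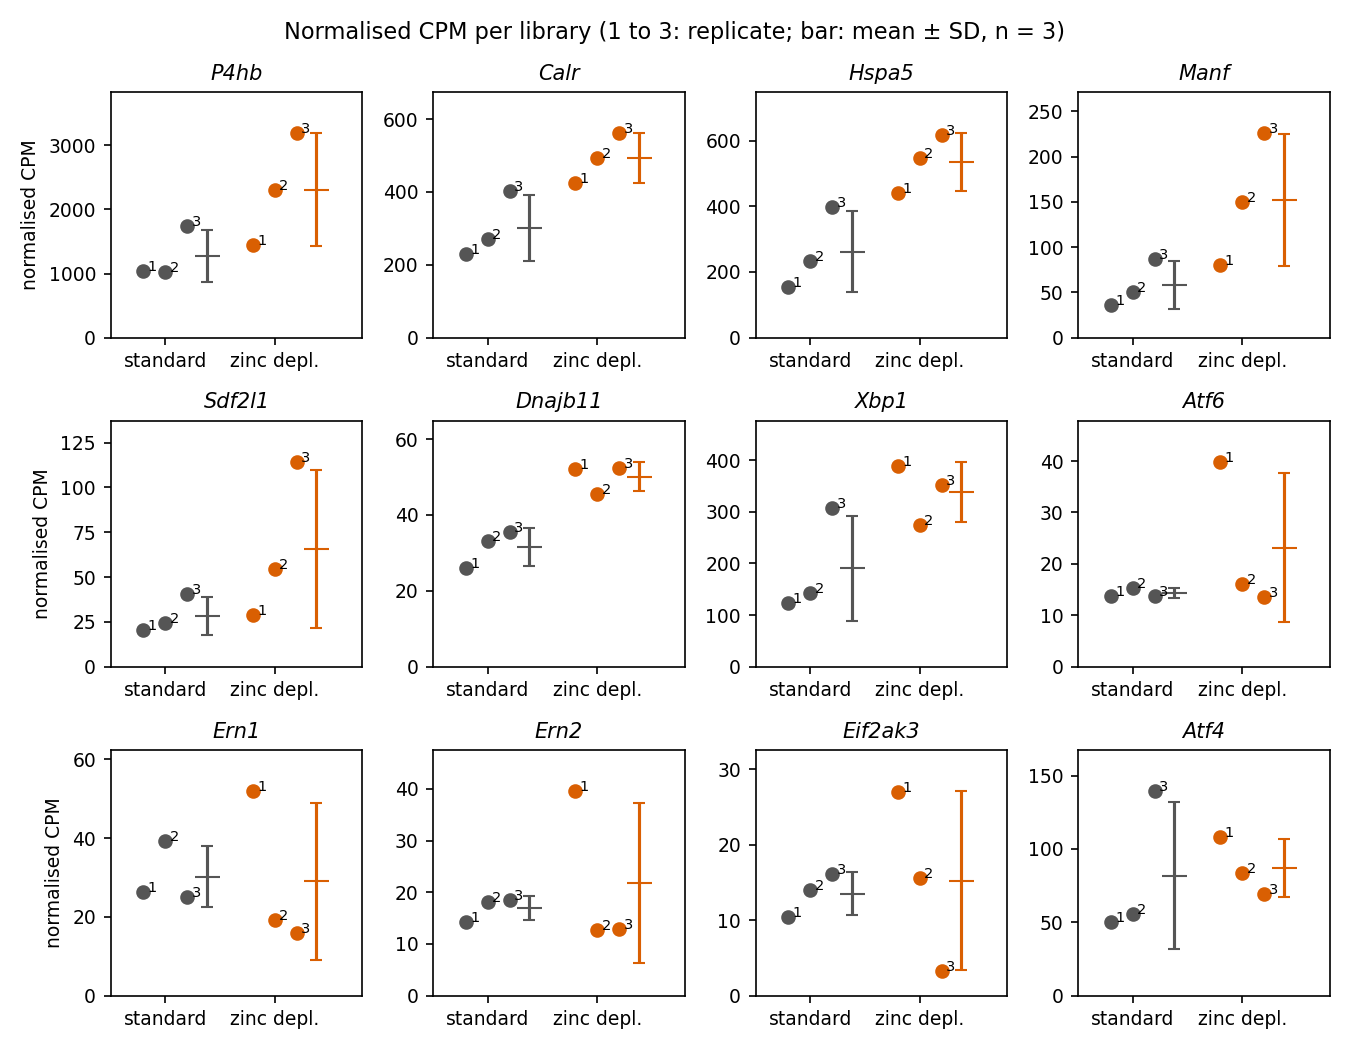
Normalised CPM (y axis, from 0) of 12 genes in each library, with standard diet in grey, zinc depletion in orange, the replicate number beside each point and a bar for the mean ± SD (n = 3). Hspa5, Calr and Dnajb11 have groups that do not overlap, whereas zinc depleted library 1 stands alone at the top for Ern1, Ern2, Atf6 and Eif2ak3.

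Of the transcription factors, Xbp1 (ENSMUSG00000020484, chr11:5470606-5483027, plus strand) was at 123, 142 and 308 normalised CPM with standard diet and at 389, 275 and 352 with zinc depletion. Standard diet library 3 lay among the zinc depleted libraries and the other standard diet libraries lay well below all of them. On the log2 scale the difference was 0.83 ± 0.47 (edgeR adjusted p = 0.681), and it was 0.37 with total counts and 1.40 without standard diet library 3. IRE1 removes an intron of 26 bases from this mRNA, which GENCODE M39 places at chr11:5474278-5474303 (plus strand, GRCm39) in 1 of 24 Xbp1 transcripts and which is shown in capitals with 2 bases on each side.
Xbp1: ccGCAGCACTCAGACTATGTGCACCTCTgc
The gene counts sum reads of all forms and do not tell spliced from unspliced Xbp1, so they give no measure of IRE1 activity. Xbp1 also shares 1526 exon bases with Ccdc117 on the opposite strand, and whether counting used strand was not given in the sources used here. Rtcb, the ligase that joins the cut Xbp1 exons, was even between the groups, at 46.3, 38.2 and 40.4 against 41.0, 34.3 and 34.6 normalised CPM (log2 fold change -0.18 ± 0.34, edgeR adjusted p = 0.880).

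Atf4 (ENSMUSG00000042406, chr15:80139372-80141745, plus strand), whose translation PERK signalling favours, was at 50.4, 55.5 and 140 normalised CPM with standard diet and at 108, 83.5 and 69.0 with zinc depletion. Standard diet library 3 was the highest of all 6 and the other standard diet libraries were the lowest. The log2 fold change was 0.09 ± 0.47 (edgeR adjusted p = 0.961) and was 0.76 without standard diet library 3. Ddit3 (ENSMUSG00000025408, chr10:127124268-127132163, plus strand), encoding the stress-induced factor CHOP, had 8, 9 and 7 counts in the standard diet libraries, against 15, 0 and 2 in the zinc depleted group. It was at most 1.03 normalised CPM, did not pass the low-count filter and was not tested. The 0 in zinc depleted library 2 allows up to 0.631 normalised CPM (3 counts), so a difference was not detectable at this depth. Ddit3 exons overlap those of Mars1 on the opposite strand.

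The feedback genes of the PERK arm followed the same library pattern as Atf4. Trib3, a pseudokinase that ATF4 and CHOP induce, was at 3.95, 2.49 and 19.4 normalised CPM with standard diet and at 9.89, 6.31 and 5.96 with zinc depletion. The estimate of -0.20 ± 0.67 on the log2 scale (edgeR adjusted p = 0.933) turned to 1.25 without standard diet library 3. Ppp1r15a, encoding GADD34, which reverses the translation block, was at 4.34, 3.90 and 21.4 against 17.7, 12.2 and 9.88. For both genes standard diet library 3 was the highest of the 6 and the other standard diet libraries were the lowest, and the log2 fold change of Ppp1r15a was 0.44 (edgeR adjusted p = 0.834). It was 1.74 without standard diet library 3 and 0.054 without standard diet library 2.

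All 9 chaperones and co-chaperones had a higher mean with zinc depletion (median log2 fold change 0.63). For 5 of them the groups did not overlap with TMM scaling, where 3.51% of all tested genes were higher in this way. With total counts the groups of these 5 genes overlapped. Hspa5 (ENSMUSG00000026864, chr2:34661982-34668880, plus strand) was at 153, 235 and 396 normalised CPM with standard diet and at 442, 548 and 616 with zinc depletion. On this scale every zinc depleted library lay above every standard diet library, and the means of 262 ± 124 and 535 ± 88.0 (SD, n = 3) differed by 2.05-fold. The log2 fold change was 1.03 ± 0.47 (edgeR adjusted p = 0.681). With total counts Hspa5 was at 265, 353 and 356 CPM against 644, 351 and 283 (log2 fold change 0.39). Manf (ENSMUSG00000032575, chr9:106715511-106769727, minus strand), encoding a secreted ER stress protein that binds BiP, was at 36.2, 51.0 and 87.2 against 80.5, 150 and 226. Its groups overlapped by standard diet library 3 and zinc depleted library 1, and the log2 fold change was the largest of the list at 1.39 ± 0.50 (edgeR adjusted p = 0.681). Manf exons share 3962 bases with Rbm15b on the same strand and those of Hspa5 share 2457 bases with Rabepk on the opposite strand, and whether reads were divided between these genes was not given in the sources used here.

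Sdf2l1 (ENSMUSG00000022769, chr16:16948002-16950252, minus strand), a stromal-derived factor-like member of ER chaperone complexes, was at 20.3, 24.6 and 40.5 normalised CPM with standard diet and at 28.6, 54.3 and 114 with zinc depletion. Zinc depleted library 1 fell within the standard diet range and library 3 stood far above the rest. On the log2 scale the difference was 1.21 ± 0.52 (edgeR adjusted p = 0.681) and was 0.58 without zinc depleted library 3. Dnajb11 (ENSMUSG00000004460, chr16:22676587-22698384, plus strand), a J-domain partner of BiP, was at 26.0, 33.2 and 35.5 against 52.2, 45.7 and 52.4. The groups did not overlap, and the log2 fold change was 0.67 ± 0.35 (edgeR adjusted p = 0.681).

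The other chaperones had smaller estimates. Dnajc3, encoding the co-chaperone p58IPK, averaged 70.9 normalised CPM with standard diet and 105 with zinc depletion (log2 fold change 0.57). Creld2 averaged 19.0 and 29.3 (0.63), and Hsp90b1, encoding GRP94, averaged 82.1 and 106 (0.36), all 3 without overlap of the groups. Hyou1, a large ER relative of the heat shock proteins that acts on BiP, averaged 68.6 and 94.7 (0.47). Only zinc depleted library 1 lay above the standard diet range for Hyou1, and without it the log2 fold change was 0.15. Dnajb9, a co-chaperone that is an XBP1 target, averaged 41.4 and 44.9 (0.12), with standard diet library 3 the highest of the 6. With total counts only 5 of the 9 chaperones had a log2 fold change above 0, and the median was 0.03.

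All 6 lectin chaperones and disulfide isomerases likewise had a higher mean with zinc depletion (median log2 fold change 0.48). Calr (ENSMUSG00000003814, chr8:85567946-85573667, minus strand) was at 230, 270 and 404 normalised CPM with standard diet and at 425, 493 and 562 with zinc depletion. The groups did not overlap, although standard diet library 3 came close to the lowest zinc depleted library, and the log2 fold change was 0.71 ± 0.42 (edgeR adjusted p = 0.681). P4hb was at 1047, 1022 and 1740 against 1437, 2300 and 3192, with overlap between standard diet library 3 and zinc depleted library 1, and had a log2 fold change of 0.86 ± 0.51 (edgeR adjusted p = 0.681). Of the others, the isomerase Pdia3 averaged 180 and 255 (0.50), Pdia6 averaged 140 and 191 (0.45), Pdia4 averaged 26.3 and 31.5 without overlap of the groups (0.26) and the membrane lectin Canx averaged 82.6 and 94.3 (0.19). With total counts 2 of these 6 genes (Calr and P4hb) were above 0 and the median was -0.30.

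The ER-associated degradation (ERAD) genes were evenly divided, with 4 of 8 higher and a median log2 fold change of 0.04. Sel1l and Syvn1 encode the adaptor and the ubiquitin ligase of the HRD1 complex. Sel1l was at 46.6, 42.3 and 24.7 normalised CPM with standard diet and at 62.6, 23.6 and 18.7 with zinc depletion (log2 fold change -0.11 ± 0.50, edgeR adjusted p = 0.955). Syvn1 was at 18.1, 21.2 and 17.7 against 35.8, 6.94 and 12.4 (-0.03 ± 0.53, edgeR adjusted p = 0.989). As for Ern1 and Ern2, zinc depleted library 1 was the highest and the other zinc depleted libraries the lowest for both genes. Edem1, encoding a mannosidase-like protein that directs misfolded glycoproteins to degradation, was at 100, 99.6 and 114 against 142, 89.4 and 80.9 (-0.01 ± 0.39, edgeR adjusted p = 0.995), and its groups overlapped fully. Derl3, a low-level derlin, was at 1.66, 4.22 and 2.57 against 2.54, 1.26 and 2.21 (-0.45 ± 0.57, edgeR adjusted p = 0.826), with 6 to 39 counts per library.

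The remaining ERAD genes were level or higher with zinc depletion. Derl1, a channel component of retrotranslocation, averaged 38.2 and 56.8 normalised CPM without overlap of the groups (log2 fold change 0.57), and its relative Derl2 averaged 16.4 and 25.4 (0.63). Herpud1, a stress-induced partner of the HRD1 complex, averaged 143 and 168 (0.23, and 0.57 without standard diet library 3), and Edem2 averaged 85.9 and 91.3 (0.09). With total counts 0 of the 8 ERAD genes were above 0.

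**Figure D4:**
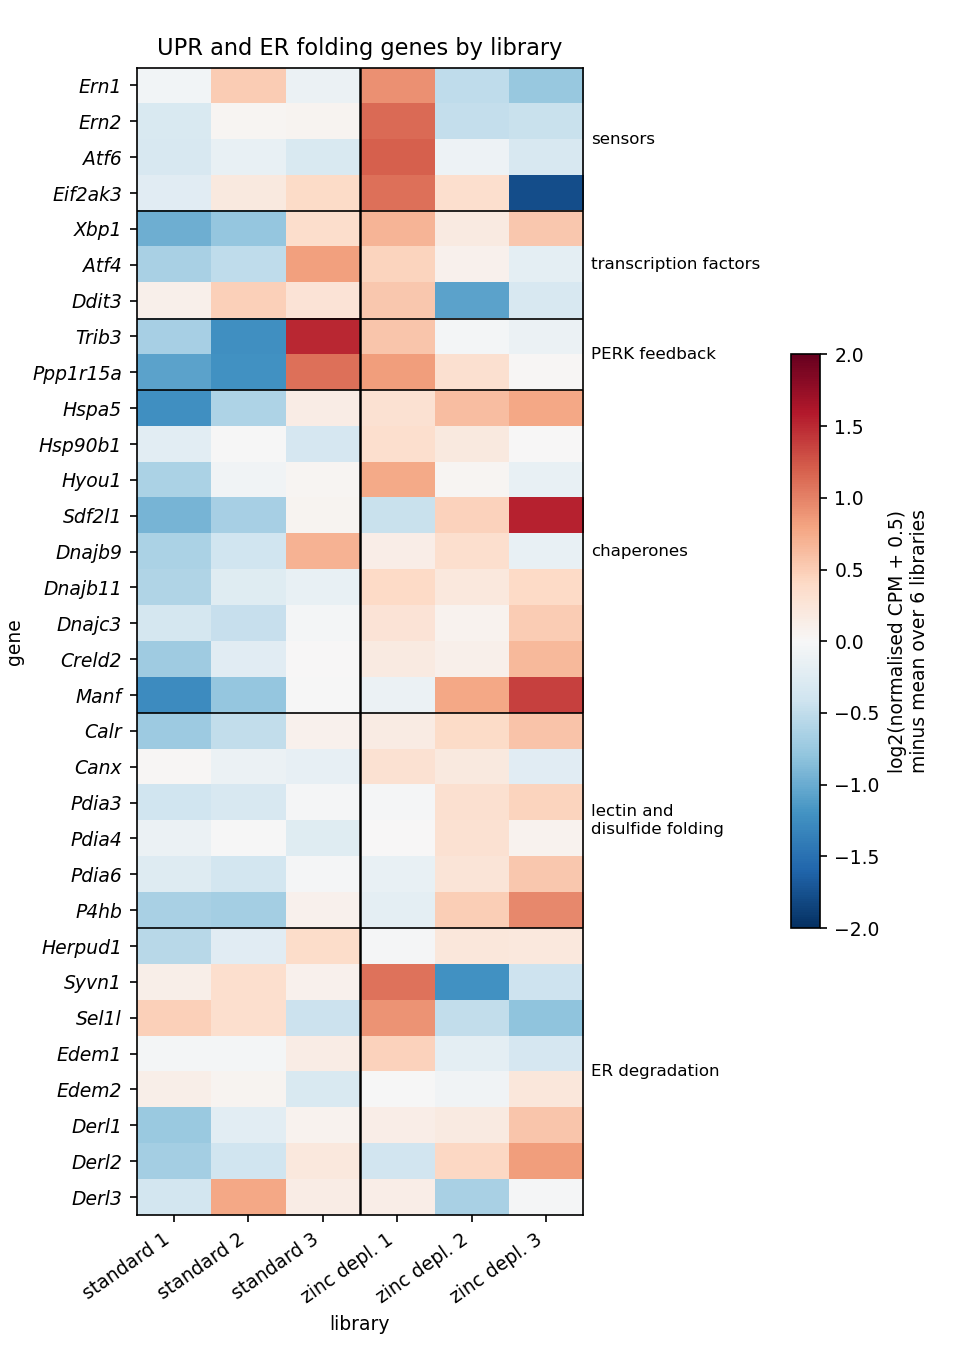
log2(normalised CPM + 0.5) of each of the 32 genes (rows, grouped by role) in each of the 6 libraries (columns) minus the gene's mean over the libraries, from blue (lower) to red (higher). The chaperone and folding genes are mostly blue in standard diet libraries 1 and 2, the sensors, Syvn1 and Sel1l are red in zinc depleted library 1, and the PERK feedback genes have their darkest red in standard diet library 3.

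The arms differed in their estimates and in the libraries that carried them. Of the genes assigned to the ATF6 arm 10 of 11 had a higher mean with zinc depletion (median log2 fold change 0.63), and the 3 genes at an unadjusted p below 0.05 were all in it. Of the IRE1-XBP1 arm 9 of 13 were higher (median 0.37), and of the PERK arm 3 of the 4 tested were higher (median 0.14). With total counts the medians were 0.03, -0.34 and -0.18. Summed normalised CPM of the ATF6 arm was 775, 983 and 1364 on the standard diet against 1533, 1710 and 1958 after zinc depletion. The groups of this sum did not overlap on the TMM scale, and the sum was not computed with total counts. With total counts 1 of the 11 genes was higher without overlap (0.554% of all tested genes), against 5 with TMM scaling (3.51%). The largest genes in this sum, Calr and Hspa5, had groups that overlapped with total counts. Calr was then at 396, 406 and 363 CPM against 620, 315 and 258. Hspa5 was then at 265, 353 and 356 CPM against 644, 351 and 283. The summed normalised CPM of the IRE1-XBP1 arm was 673, 721 and 972 against 1160, 947 and 1129, and that of the PERK arm was 69.7, 77.0 and 197 against 164, 118 and 88.4. In both of these arms standard diet library 3 lay above at least 1 zinc depleted library, and in the PERK arm it was the highest of all. The arm medians moved when single libraries were left out. Without standard diet library 3 that of the PERK arm was 1.01. Without zinc depleted library 1 the medians were 0.34 for the ATF6 arm, 0.13 for the IRE1-XBP1 arm and -0.29 for the PERK arm. The median of all tested genes was then -0.11. Leaving out each library in turn gave 0.34 to 0.75 for the ATF6 arm and 0.13 to 0.60 for the IRE1-XBP1 arm. Genes were assigned to arms by textbook knowledge, but with earlier results of these data known. The arms share targets, and no difference between arms was tested.

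**Figure D5:**
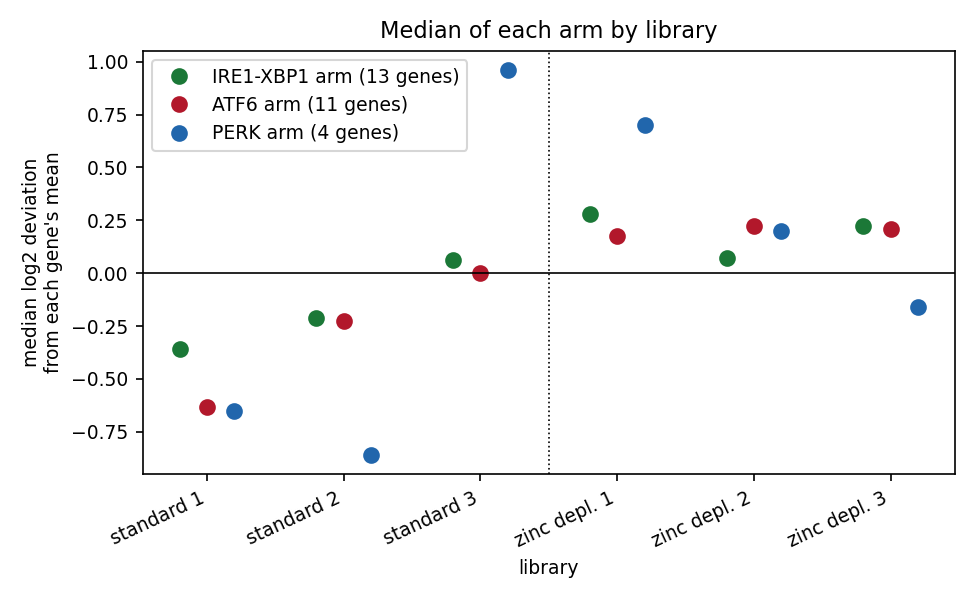
Median over the genes of each arm (13 of the IRE1-XBP1 arm in green, 11 of the ATF6 arm in red and 4 of the PERK arm in blue) of the log2 deviation from the gene's mean over 6 libraries (y axis), by library (x axis). The PERK arm is highest in standard diet library 3 (0.96) and zinc depleted library 1 (0.70) and lowest in standard diet library 2 (-0.86).

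The libraries of the standard diet group were not alike. Standard diet libraries 1 and 2 both lay below the other 4 libraries for 18 of the 32 genes, an order seen in 1387 of the 9749 tested genes (14.2%). Standard diet library 3 lay above both of them for 22 of the 32 genes, against 39.7% of all tested genes. It lay within the range of the zinc depleted libraries for 17 and above that range for 6. In the zinc depleted group library 1 was the highest of the group for 16 genes and library 3 for 13. Of the 31 tested genes, 4, 7 and 19 were above their own mean in standard diet libraries 1, 2 and 3, and 23, 22 and 18 in zinc depleted libraries 1, 2 and 3. Without standard diet library 1 or 2 none of the genes was at an unadjusted p below 0.05 in edgeR, where 1.41% and 2.77% of all tested genes were. Without zinc depleted library 2 or 3 there was 1 in each fit, where 2.97% and 5.55% of all tested genes were. Without standard diet library 3 there were 6 of 31, where 15.3% of all tested genes were below this p, and without zinc depleted library 1 there were 9 of 31, where 24.2% of all tested genes were, so both counts were near those of all genes. None of the 31 was at an adjusted p below 0.05 in these fits (smallest 0.117, edgeR).

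Other properties of the libraries moved with these values. Across 9740 tested genes the log2 deviation in a library correlated with transcript length, with Spearman coefficients of 0.257, 0.246 and -0.116 for standard diet libraries 1 to 3 against 0.515, -0.286 and -0.494 for zinc depleted libraries 1 to 3. Zinc depleted library 1, which was highest for the 4 sensors, had the most positive coefficient, and zinc depleted library 3 had the most negative. Of the 32 listed genes 12 were highest in zinc depleted library 1. Ern1 (7002 bases), Atf6 (7541), Sel1l (6356), Edem1 (6002), Eif2ak3 (4555), Hyou1 (4446), Canx (3808) and Syvn1 (3467) were longer than the median of 3390 bases over the 9740 tested genes. The others, Ern2 (2914), Hsp90b1 (2830), Xbp1 (1969) and Ddit3 (979), were shorter. In zinc depleted library 3, 13 of the 32 genes were highest. Of these, Dnajc3 (5187), Hspa5 (4953), Derl1 (4289), Derl2 (4212), Pdia3 (3680) and Edem2 (3432) were longer than the median of 3390 bases. Sdf2l1 (1113), Creld2 (1402), Dnajb11 (2003), Manf (2247), Calr (2288), P4hb (2940) and Pdia6 (3330) were shorter. When the trend with transcript length was removed in the fit, 29 of the 31 genes were above 0, and their median log2 fold change was 0.51. Of the 31, 27 were above the median of all genes, which was 0.048. At an unadjusted p below 0.05 there were 7 of the 31, where 9.60% of all tested genes were, and Sdf2l1 was at 0.80. Of the goblet cell markers Muc2 and Clca1 were highest in the same zinc depleted library 1 and the other 3 were not, and goblet cells also express Ern2. The summed stem cell markers ranged from 902 to 2067 normalised CPM with standard diet and from 387 to 1161 with zinc depletion. The part of goblet cells and of stem cells in these differences was not tested.

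Beyond the 32 genes, 51 further genes were listed and 50 were tested. They belonged to ER folding, degradation, sensor processing with related factors, and PERK and ATF4 signalling. None passed an adjusted p below 0.05 in edgeR, 35 were above 0 and the median log2 fold change was 0.28, while with total counts 11 were above 0 and the median was -0.24. At an unadjusted p below 0.05 in edgeR, 4 of the 50 were higher and 1 was lower, where 2.58% of all tested genes were higher and 4.03% lower. The folding and disulfide genes leaned highest, with 14 of 16 above 0 and a median of 0.72 (5 of 16 and -0.072 with total counts). Another list held Mbtps1, Mbtps2, Atf6b, Creb3, Creb3l1, Creb3l2, Creb3l3, Creb3l4, Rtcb, Wfs1 and Tmbim6. That list lay lower, with 3 of 11 above 0 and a median of -0.14 (0 of 11 and -0.83 with total counts). Agr2, a disulfide isomerase of mucus-secreting cells, was at 273, 298 and 564 normalised CPM with standard diet and at 496, 926 and 2258 with zinc depletion. Standard diet library 3 overlapped the zinc depleted group, and the log2 fold change was 1.70 ± 0.61 (edgeR adjusted p = 0.681). Fkbp11, a prolyl isomerase of secretory cells, was at 18.9, 21.5 and 53.4 against 28.2, 65.8 and 156 (1.41 ± 0.62, edgeR adjusted p = 0.681), in the same library order as Agr2.

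Ubxn4, an ERAD factor of the ER membrane, was at 15.0, 14.9 and 12.1 normalised CPM with standard diet and at 23.5, 29.9 and 23.3 with zinc depletion. Its groups did not overlap, and the log2 fold change was 0.87 ± 0.35 (edgeR adjusted p = 0.681). Among the lower genes, Creb3l3, an ER-tethered transcription factor, was at 2.53, 5.09 and 2.68 against 1.37, 1.26 and 0.511, also without overlap (-1.66 ± 0.61, edgeR adjusted p = 0.681). Sesn2, an ATF4 target, was at 6.55, 5.95 and 6.70 against 5.70, 1.68 and 0.341 (-1.21 ± 0.69, edgeR adjusted p = 0.681), with all 3 zinc depleted libraries below the standard diet libraries. Mbtps1, the Golgi protease that makes the first cut in ATF6, was at 27.0, 23.5 and 16.0 against 18.2, 13.9 and 14.1 (-0.52 ± 0.37, edgeR adjusted p = 0.707), with standard diet library 3 inside the zinc depleted range.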

How the data were processed

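RNA of sorted Paneth cells was sequenced single-end with Element AVITI chemistry. The deposited values are raw counts per gene. The submitters' processing notes name FastQC, Trimmomatic 0.39, STAR 2.7.10a, DESeq2 and the mm39 (GRCm39) build. The counting program, its strand setting and its treatment of multi-mapped reads were not given in the sources used here. The depth per library was 6139397 to 12772373 counts and limits low genes such as Ddit3.

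Gene IDs were matched to GENCODE M39, which held 54749 of 55414 IDs and all 32 listed genes. Genes were filtered with filterByExpr, scaled by TMM and fitted on all 6 libraries with group as the only term in edgeR 4.0.16 (glmQLFit and glmQLFTest, R 4.3.3), and p-values were adjusted by the Benjamini-Hochberg method over 9749 genes with a threshold of 0.05. Fold changes are zinc depletion over standard diet. Normalised CPM is the CPM after TMM scaling. Levels per kb were divided by the length of the canonical transcript, and fold changes are read against the median of all tested genes. A coefficient of variation between libraries of 44.0% was estimated. In simulated counts with 4-fold changes, 77 of 189 changed genes were recovered with 2 false calls among 9369 tested genes, and with 8-fold changes 173 of 183 with 10 false calls among 9458.

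The members, arms, roles and lists were chosen with earlier results of these data known. Full values are given for Ern1, Ern2, Xbp1, Atf6, Eif2ak3, Atf4, Ddit3, Hspa5 and up to 6 members per direction with the smallest unadjusted p, and for Rtcb, Agr2 and 3 further pathway genes per direction. Other members are given by both group means, and cytosolic heat shock genes by counts and median. No 2 libraries of a group agreed within sampling noise. Alternatives were other scaling factors, DESeq2 1.42.0, voom in limma 3.58.1, other filters, a replicate block, leaving out each library and, added after the data were seen, removal of a transcript length trend. The marker lists of enterocytes, enteroendocrine cells, tuft cells and leukocytes were summed as well. In normalised CPM they ranged over all 6 libraries from 8.86 to 87.0, from 3.84 to 25.3, from 17.1 to 314 and from 21.2 to 123.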

Additional observations from a re-analysis of the deposited data

How the results depend on the processing

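No listed gene reached an adjusted p below 0.05 under any alternative. Over all genes 0 were called by edgeR (645 at an unadjusted p below 0.05), 10 by DESeq2 and 76 with no low-count filter, and leaving out each library gave 0 to 28, with 28 without standard diet library 3. The median log2 fold change of the listed genes was -0.21 with total counts, against 0.44. Of 465 alternative fold changes of listed genes 421 kept their sign and 44 reversed it. With total counts the reversed values were -0.077 for Eif2ak3, -0.29 for Atf4, -0.29 for Hsp90b1, -0.39 for Dnajb9, -0.10 for Dnajc3, -0.070 for Creld2, -0.43 for Canx, -0.25 for Pdia3, -0.48 for Pdia4, -0.35 for Pdia6, -0.42 for Herpud1, -0.68 for Edem2, -0.11 for Derl1 and -0.21 for Derl2, where the median of all genes moved to -0.66. Edem1 was at 0.010 with relative log expression (RLE) size factors and 0.011 with DESeq2. With voom Eif2ak3 was at -0.20 and Trib3 at 0.40. With the length trend removed Ern1 was at 0.071, Syvn1 at 0.044, Sel1l at 0.022 and Edem1 at 0.18. Leaving out each library gave ranges of -0.77 to 0.29 for Ern1, -0.39 to 0.69 for Ern2, -0.53 to 0.71 for Eif2ak3, -0.17 to 0.76 for Atf4, -0.64 to 1.25 for Trib3, -0.12 to 0.69 for Dnajb9, -0.95 to 0.40 for Syvn1, -0.83 to 0.24 for Sel1l and -0.29 to 0.19 for Edem1. The difference in Ern2 share ranged from 3.84 to 9.14 points. The cause of these reversals was not tested.

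The sample labels do not say whether the replicate numbers pair the samples. Deviations of same-numbered libraries correlated at 0.147, -0.0584 and 0.248, and standard diet library 2 correlated best with zinc depleted library 1 (0.250). With 3 libraries per group these values cannot decide it. With the replicate number as a block 0 genes were called, 962 were at an unadjusted p below 0.05 against 645, and 3 listed genes were so in both fits, with a median of 0.43, Eif2ak3 at -0.15 and Trib3 at 0.35. The depth limits statements on Ddit3 and Derl3.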

Other observations

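Cytosolic and mitochondrial heat shock genes were listed beside the ER chaperones. Of 12 genes 9 were tested, 7 were above 0 with TMM scaling and the median log2 fold change was 0.19, while with total counts 0 were above 0 and the median was -0.49. None passed an adjusted p below 0.05. At an unadjusted p below 0.05 in edgeR 0 of the 9 were higher and 1 was lower, where 2.58% of all tested genes were higher and 4.03% lower.

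Atf3, a stress-induced transcription factor downstream of ATF4, was named after its values were seen. Its counts were 4, 3 and 33 in the standard diet libraries against 84, 23 and 26 in the zinc depleted ones, which gave 0.316, 0.325 and 3.68 normalised CPM against 5.77, 4.84 and 4.43. All zinc depleted libraries lay above all standard diet libraries, and standard diet library 3 lay apart from the other standard diet libraries, as it did for Atf4, Trib3 and Ppp1r15a. The log2 fold change was 1.83 ± 0.82 (edgeR adjusted p = 0.681), with a range from 1.32 to 3.97 over the alternatives and a smallest adjusted p of 0.0497, reached without standard diet library 3. The list of PERK and ATF4 signalling genes outside the 32 held Eif2s1 (0.99) and Ppp1r15b (0.16) beside ATF4 targets. Its 12 tested genes had 9 estimates above 0 and a median of 0.30, and with total counts 3 and -0.18.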
